A study of Mus musculus with 4 samples.

Results

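The clustered histone genes of the mouse were followed in a list of H3K4me3-anchored chromatin interactions from macrophages. A member was any autosomal protein-coding gene of the basic GENCODE M21 annotation whose symbol begins with Hist1h, Hist2h, Hist3h or Hist4h. This gave 67 of 20720 autosomal protein-coding genes. Their transcription start sites (TSSs) fell in 37 bins of 5 kb, and 194 of the 237102 listed interactions had such a bin at 1 or both ends.

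Bone marrow-derived macrophages (BMDMs) from C57BL/6J mice, differentiated over 7 days in medium with M-CSF, were either left untreated (basal, 2 samples) or given 20 ng/mL interleukin-4 for 24 h (IL-4, 2 samples). HiChIP, which ligates DNA ends that lie close together in fixed nuclei and then pulls down fragments carrying a chosen mark, was done with an antibody to H3K4me3, a mark of active promoters. The authors ran their interaction caller on single samples, on conditions and on the merge of all samples, and the list analysed here is the call on the merge. Each bin pair therefore has 1 observed count and 1 expected count, basal and IL-4 cells are not compared here, and neither replicate error nor the depth of a sample is known. Shares below are descriptions. Their intervals cover counting error alone, and bin pairs that lie side by side are not independent.

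Replication-dependent histone genes encode the bulk of the histones packed onto new DNA during S phase. They lack introns as a rule, and their mRNAs end in a conserved stem-loop in place of a poly(A) tail, bound by SLBP. The genes lie in arrays that gather in the nucleus in a histone locus body, where NPAT and processing factors are concentrated. H2A, H2B, H3 and H4 form the nucleosome core, and H1 binds the linker DNA between nucleosomes.

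The stem-loop is shown because it is a trait of replication-dependent histone mRNAs and its letters differed between H4 and the other families. A match of letters does not show that a member is replication-dependent. The known 16-base core was searched in the GRCm38 sequence, on the sense strand within 150 bases after each stop codon, with at most 1 mismatch. It was found for 49 of 67 members (38 of them exact) and for no H4 gene. A core with another base pair in the stem, searched after the first had missed the H4 genes, was found for 11 members, each of them an H4 gene. Both are given for the 4 genes whose promoters follow, with 5 bases on either side, 5′ to 3′ on the gene strand, and with the stem in capitals.
Hist1h2af, chr13:23534354-23534379: ccaaaGGCTCTtttcAGAGCCaccac
Hist1h2ab, chr13:23751567-23751592: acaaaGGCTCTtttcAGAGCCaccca
Hist1h3e, chr13:23561898-23561923: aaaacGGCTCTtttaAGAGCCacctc
Hist1h4f, chr13:23551286-23551311: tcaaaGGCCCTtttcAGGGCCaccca

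The stem and loop of Hist1h2af and Hist1h2ab were found in 38 members of H1, H2A, H2B and H3, that of Hist1h3e in 9 and that of Hist1h4f in 8 H4 genes. Across the 60 members with either core, the stem-loop began 22 to 59 bases after the stop codon, with a median of 32. No match was found for Hist2h2be, Hist1h4j, Hist1h2bp, Hist1h2bq, Hist1h2br, Hist1h3g and Hist1h4b, which says only that these letters were not in that window. The window was set by the stop codon of the longest annotated coding sequence of each gene.

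Promoters are shown for 1 gene in each bin of the histone pair with the highest count, Hist1h2af and Hist1h4f, and of the pair with the highest ratio of observed to expected count, Hist1h3e and Hist1h2ab. Each runs from 250 bases before the RefSeq start site to 50 after it (GRCm38.p6, gene strand, 5′ to 3′). Capitals mark matches, on either strand, to CCAAT, to the TATA box TATAAA, the octamer ATTTGCAT, the H1 box AAACACA, the HINFP core GCGGAC, and the E2F forms TTTCGCGC and TTTGGCGC.
Hist1h2af, chr13:23533625-23533924, plus strand: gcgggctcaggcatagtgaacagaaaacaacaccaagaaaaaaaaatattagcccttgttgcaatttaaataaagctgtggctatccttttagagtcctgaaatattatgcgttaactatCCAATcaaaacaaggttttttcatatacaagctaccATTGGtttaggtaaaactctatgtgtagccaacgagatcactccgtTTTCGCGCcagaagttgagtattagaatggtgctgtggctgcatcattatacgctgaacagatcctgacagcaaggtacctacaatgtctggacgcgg
Hist1h4f, chr13:23551619-23551918, minus strand: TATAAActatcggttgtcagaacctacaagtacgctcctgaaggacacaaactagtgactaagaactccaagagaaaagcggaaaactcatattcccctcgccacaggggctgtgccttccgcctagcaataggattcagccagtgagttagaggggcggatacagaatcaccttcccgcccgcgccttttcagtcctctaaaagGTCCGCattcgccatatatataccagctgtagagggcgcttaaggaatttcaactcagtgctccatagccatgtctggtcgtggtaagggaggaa
Hist1h3e, chr13:23562336-23562635, minus strand: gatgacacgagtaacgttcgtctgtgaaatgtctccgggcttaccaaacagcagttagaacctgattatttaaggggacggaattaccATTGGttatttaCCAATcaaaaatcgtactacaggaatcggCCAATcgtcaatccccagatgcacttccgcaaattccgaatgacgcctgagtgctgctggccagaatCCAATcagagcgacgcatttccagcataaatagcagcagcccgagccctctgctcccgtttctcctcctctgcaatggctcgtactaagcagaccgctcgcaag
Hist1h2ab, chr13:23750838-23751137, plus strand: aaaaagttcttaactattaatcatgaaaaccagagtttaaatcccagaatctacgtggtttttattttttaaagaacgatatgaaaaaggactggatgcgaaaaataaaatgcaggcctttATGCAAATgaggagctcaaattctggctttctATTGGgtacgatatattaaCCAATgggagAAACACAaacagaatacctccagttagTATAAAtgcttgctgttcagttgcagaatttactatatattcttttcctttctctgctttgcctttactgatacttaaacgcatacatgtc

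The E2F form of Hist1h2af began 48 bases before its start site, and the inverted HINFP core of Hist1h4f 45 bases before. Hist1h3e held 4 CCAAT matches, the nearest 54 bases before the start. Hist1h2ab held CCAAT, the TATA box, the octamer and the H1 box, with the TATA box 41 bases before the start. The TATAAA of Hist1h4f stood at the far edge of its window, 250 bases before the start.

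A RefSeq window was matched to 62 of the 67 members. CCAAT occurred in 53 of them (85.5%) against 38.1% of 20085 protein-coding windows, and TATAAA in 35 (56.5%) against 12.7%. The families differed in what they held. Every matched H1, H2A, H2B and H3 window had CCAAT, whereas 3 of 12 H4 windows did. GCGGAC was present in 9 of 12 H4 windows and 19 of all 62 (30.6%, against 12.5% of all windows). The octamer was found in 7 of 18 H2A and 6 of 16 H2B windows and in no other family (20.97% of members, against 1.67%). AAACACA was present in 5 of 6 H1 windows and in 9 members in all (14.5%, against 6.25%). TTTCGCGC was present in 9 H2A or H2B windows (14.5%, against 0.468%), and TTTGGCGC in no member (0.637% of all windows). Windows are not all separate DNA. Where an H2A and an H2B gene start close together on opposite strands, their windows can share bases, and a single match can count for both genes. These are matches of letters and not measured binding sites.

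The genes also shared an arrangement. A minus-strand member and a plus-strand member pointed away from each other with starts at most 1000 bases apart in 13 pairs, which took in 26 members. In 12 of these pairs an H2A gene faced away from an H2B gene, and in the other, Hist1h2bh and Hist1h3f, H2B was paired with H3. The starts lay 176 to 660 bases apart (median 268). In all 13 pairs both genes lay in the same 5-kb bin, so their interactions could not be told apart.

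By position the members formed 5 clusters, split where neighbouring TSSs were over 500 kb apart. On chromosome 13, 23 genes between 21716143 and 22043214 are called Hist1 proximal here, and 31 genes between 23531050 and 23934462 Hist1 distal, after their order along the chromosome. Hist2 comprised 10 genes on chromosome 3 between 96219865 and 96269752. The other clusters were Hist3, with Hist3h2a and Hist3h2ba on chromosome 11, and Hist4h4 on chromosome 6. Because neighbouring members often share a bin, a value for 1 gene is a value for its bin.

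At least 1 interaction was listed for 55 of 67 histone genes (82.1%, 95% Wilson interval 71.3 to 89.4), against 63.2% of all autosomal protein-coding genes. By bin, 32 of 37 had 1 or more (86.5%), against 57.4% of all promoter bins. The median was 4 interactions per histone gene (range 0 to 23) against 2 over all genes. The mean went the other way, at 5.33 against 8.79, and so did the upper quartile, at 7 against 11. The list is restricted by its construction to pairs with H3K4me3 in at least 1 bin, 10 kb to 1 Mb apart, with a ratio of at least 2 and a false discovery rate below 0.01. A gene at 0 therefore had no pair that met these conditions, and not necessarily no contact.

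The median count at histone genes was below that of other promoters, and the median ratio was nearly the same. The 194 interactions had a median observed count of 24 (6 to 629), against 34 for all 148313 promoter interactions. Their median ratio was 2.99 (2.01 to 8.76), against 2.99 for promoters in general. A ratio of at least 4 was reached by 40 of 194 (20.6%, 15.5 to 26.9), against 23.4% of promoter interactions. The median distance was 200 kb, against 190 kb.

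**Figure D1:**
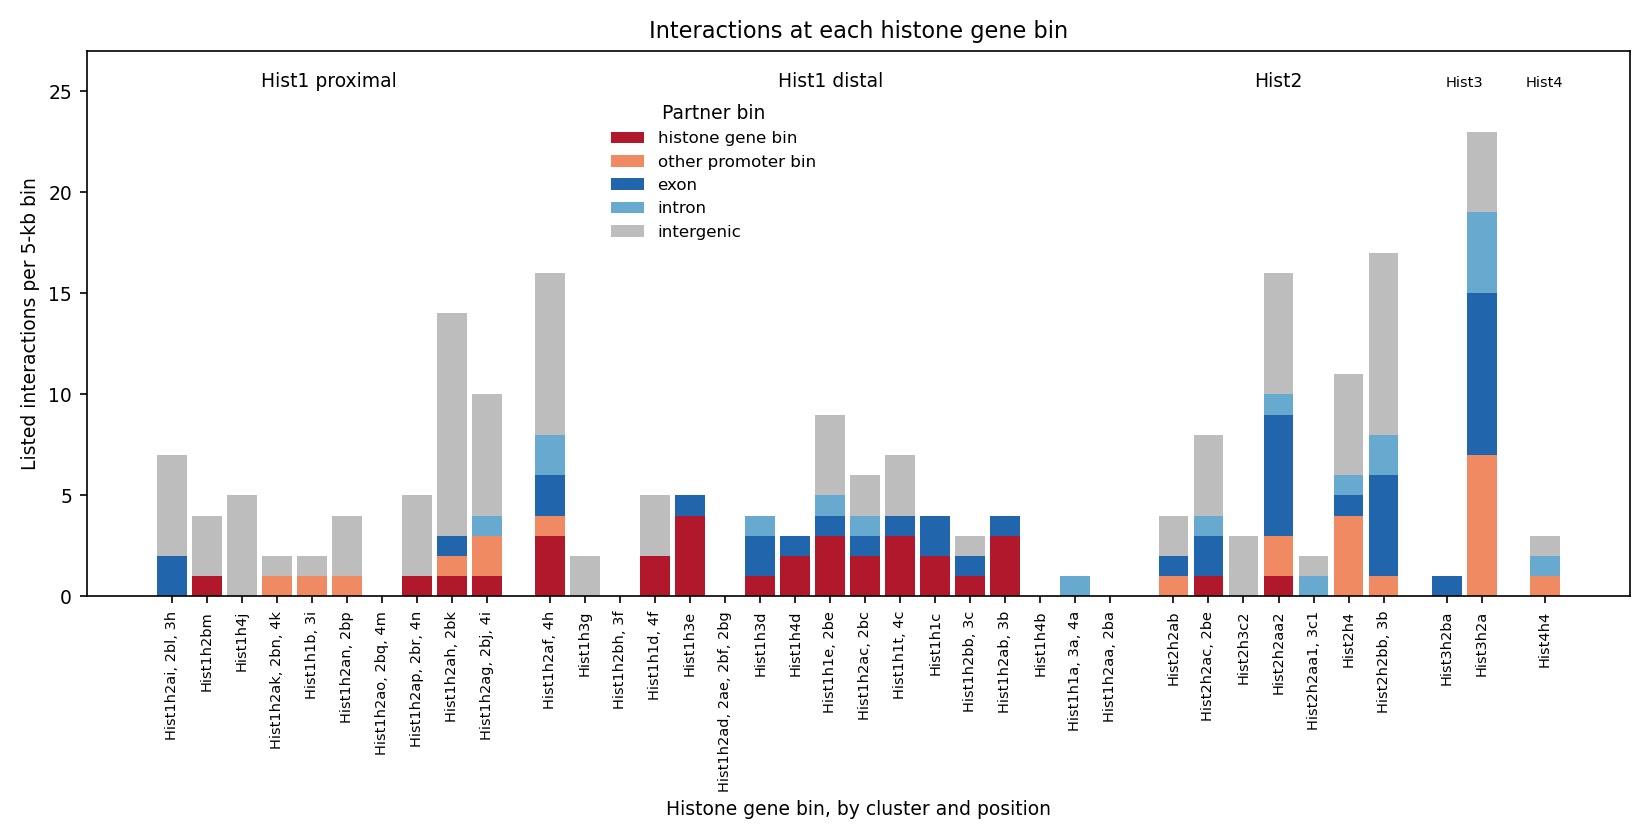
Listed interactions (vertical axis, number per 5-kb bin) at each of the 37 histone gene bins, ordered by cluster and position, with the colour of each bar section giving the kind of partner bin. Red sections, where the partner is another histone gene bin, gather in Hist1 distal, and the tallest bars are Hist3h2a at 23, Hist2h2bb with Hist2h3b at 17, and Hist2h2aa2 and Hist1h2af with Hist1h4h at 16 each.

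Interactions that joined 2 histone gene bins numbered 16, between 17 bins. Hist1 distal had 13 of them, Hist1 proximal 2 and Hist2 1. Of the bin pairs that lay 10 kb to 1 Mb apart, 13 of 129 were listed in Hist1 distal (10.1%, 95% Wilson interval 5.98 to 16.5), 2 of 42 in Hist1 proximal (4.76%, 1.32 to 15.8) and 1 of 17 in Hist2 (5.88%, 1.046 to 26.98). The 3 intervals overlap. In Hist3 and Hist4 no pair of histone bins lay in the range of the list.

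Contacts between the 2 Hist1 clusters could not be seen at all. Their nearest TSSs lay 1488 kb apart, beyond the 1 Mb limit, and of the 2211 pairs of members, 713 were over 1 Mb apart and 734 on different chromosomes. A further 39 pairs shared a bin and 39 lay in adjacent bins, both below the 10 kb limit. The remaining 686 pairs could have been listed, and 48 of them lay in a listed bin pair.

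The highest observed count between histone bins was 211 (exact 95% Poisson interval 183 to 241) against 104 expected, a ratio of 2.02. It joined the bin of Hist1h2af and Hist1h4h, at the start of Hist1 distal, to the bin of Hist1h1d and Hist1h4f 20 kb away. In Hist2, the bin of Hist2h2ac and Hist2h2be met that of Hist2h2aa2 over 20 kb with 146 counts and a ratio of 2.16. These are short-range pairs with large expected counts, and both ratios lie just above the lower limit of 2.

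A further 3 pairs complete the 5 highest counts. Hist1h2af with Hist1h4h met Hist1h3e, an H3 gene, with 137 counts over 30 kb and a ratio of 2.03. Hist1h1e, a linker histone gene that shares its bin with Hist1h2be, met Hist1h2ac and Hist1h2bc with 81 counts over 60 kb and a ratio of 2.09. The same bin met Hist1h1t, a testis linker histone gene, and its neighbour Hist1h4c with 77 counts over 75 kb and a ratio of 2.83. In each of the 5, a core histone gene lay in both bins by GENCODE starts. For the bin of Hist1h1e that gene was Hist1h2be, whose RefSeq start lies in another bin.

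The order by ratio was different, and its top 3 pairs spanned 190 to 315 kb. Hist1h3e and the bin of Hist1h2ab and Hist1h3b, 190 kb apart, gave 45 counts (32.8 to 60.2) against 7.58 expected, the highest ratio at 5.94 (4.33 to 7.94). The bins of Hist1h2ap, Hist1h2br and Hist1h4n and of Hist1h2ag, Hist1h2bj and Hist1h4i, 210 kb apart, gave 10 counts against 1.74 expected. That ratio, 5.75, has an interval from counting error of 2.76 to 10.6, which takes in 7 of the other 15 ratios.

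Hist1h2bm and the bin of Hist1h2ah and Hist1h2bk, 315 kb apart, were the longest pair, with 24 counts and a ratio of 4.91 (3.15 to 7.31). Both pairs of Hist1 proximal thus crossed the stretch that separates its main block from the 5 genes at its upper end. The next 2 by ratio were in Hist1 distal, with Hist1h1d and Hist1h4f meeting Hist1h2ab and Hist1h3b at 3.01 (25 counts, 200 kb) and Hist1h3d meeting Hist1h2ac and Hist1h2bc at 2.99 (42 counts, 105 kb).

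Over all 16, the median count was 38, the median ratio 2.60 and the median distance 125 kb, against 41, 2.74 and 210 kb for the 10893 interactions between any promoter bins. The 16 are fewer than 16 separate contacts. The authors group neighbouring bin pairs into clusters, and 9 of the 16 belong to 1 such cluster of 41 bin pairs within Hist1 distal. With 1 interaction counted per deposited cluster, 3 pairs of histone bins remained.

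**Figure D2:**
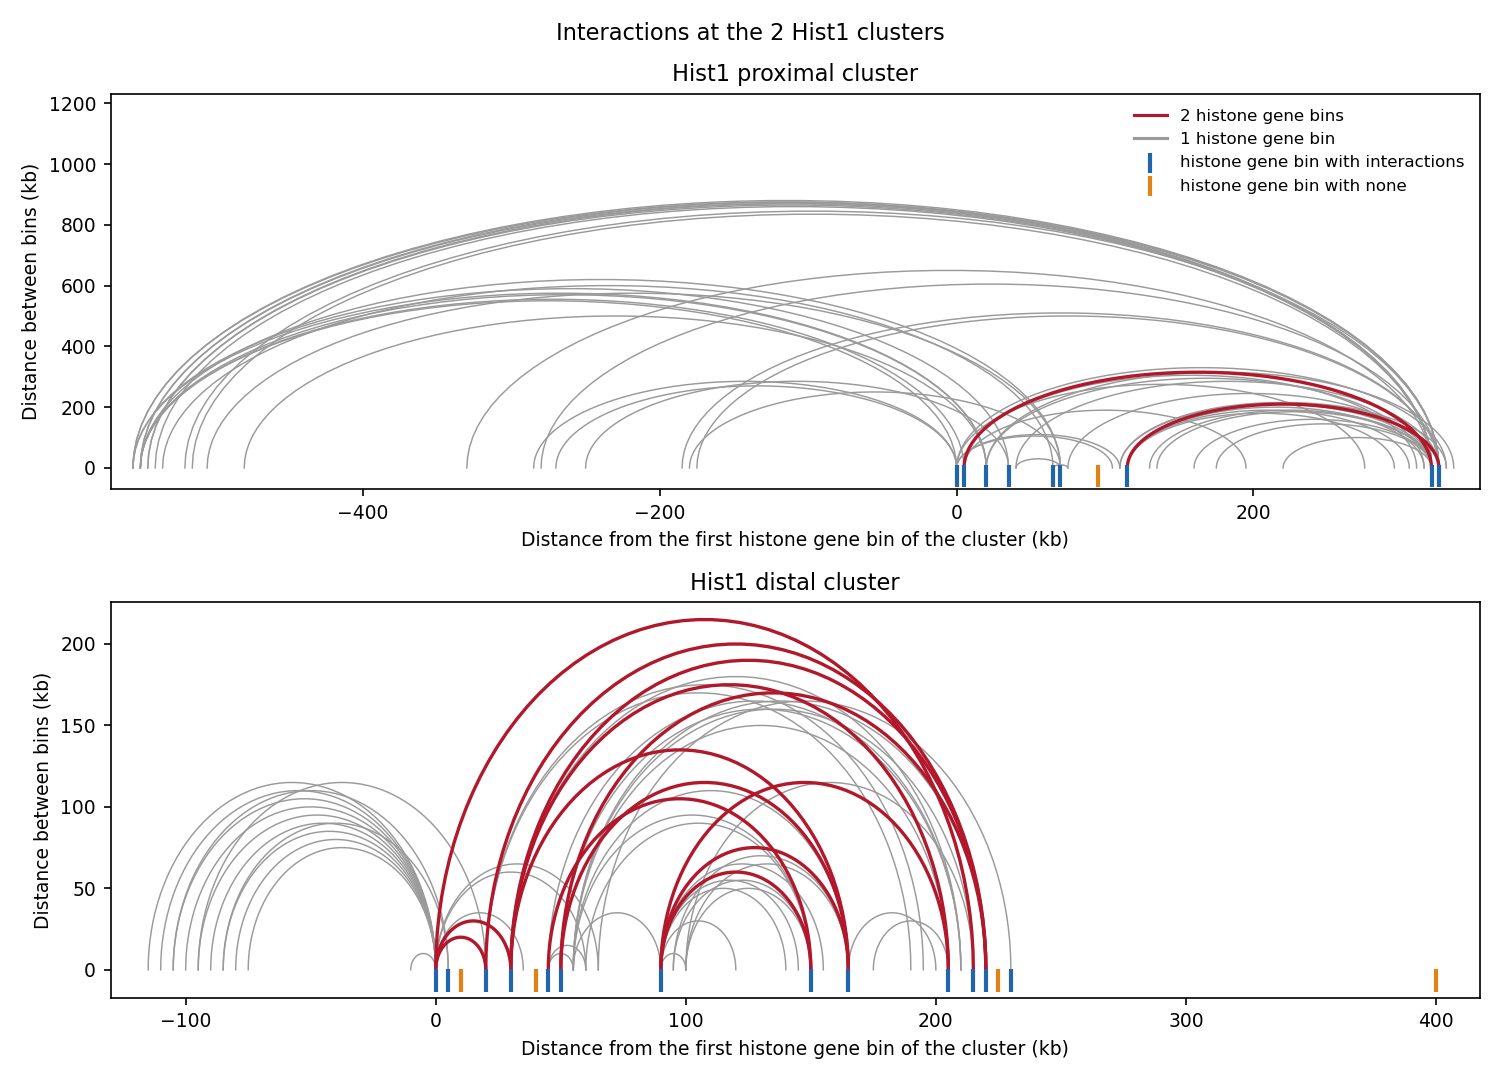
Interactions at the 2 Hist1 clusters, drawn as arcs between bins along the chromosome (horizontal axis, kb from the first histone gene bin of the cluster) with a height equal to the distance between the bins (kb). Red arcs join 2 histone gene bins (2 in the upper panel, 13 in the lower), and the upper panel has a fan of grey arcs of 550 to 880 kb to lower coordinates, whereas no arc of the lower panel is longer than 215 kb.

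Contact falls with distance, so the share of possible pairs that were listed was set beside that of all promoter bin pairs in the same range. Between 100 and 200 kb, 7 of 50 histone pairs were listed (14.0%, 6.95 to 26.2), against 4.58% of all promoter pairs. Between 200 and 500 kb it was 4 of 45 (8.89%, 3.51 to 20.7), against 2.39%. Beyond 500 kb no histone pair was possible, and 0.96% of promoter pairs were listed. In both ranges from 100 to 500 kb the general share fell below the interval of the histone pairs. These intervals treat the pairs as independent, which they are not. Of the 16 listed pairs, 9 belong to 1 deposited cluster, and most of these 9 lay 100 to 200 kb apart.

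For all possible pairs, the shares at shorter range were close to the general share. From 10 to 50 kb, 3 of 62 were listed (4.84%, 1.66 to 13.3) against 5.07%, and from 50 to 100 kb 2 of 31 (6.45%, 1.79 to 20.7) against 4.88%. Over the whole range of the list, 16 of 188 were listed (8.51%, 5.31 to 13.4), against 2.28% of promoter pairs. Histone pairs are all under 500 kb, so the share over the whole range mixes in a difference of distance. Only pairs in which both bins had some interaction were then counted. The histone share was below that of promoters in the near ranges and above it in the far ranges. The near shares rest on the same 3 and 2 listed pairs, and no interval was computed, so their direction is not established. From 10 to 50 kb the listed share was 6.52% of 46 histone pairs against 10.998% of such promoter pairs, and from 50 to 100 kb it was 8.70% of 23 against 11.2%. From 100 to 200 kb it was 22.6% of 31 against 10.9%, and from 200 to 500 kb it was 16% of 25 against 6.07%.

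**Figure D3:**
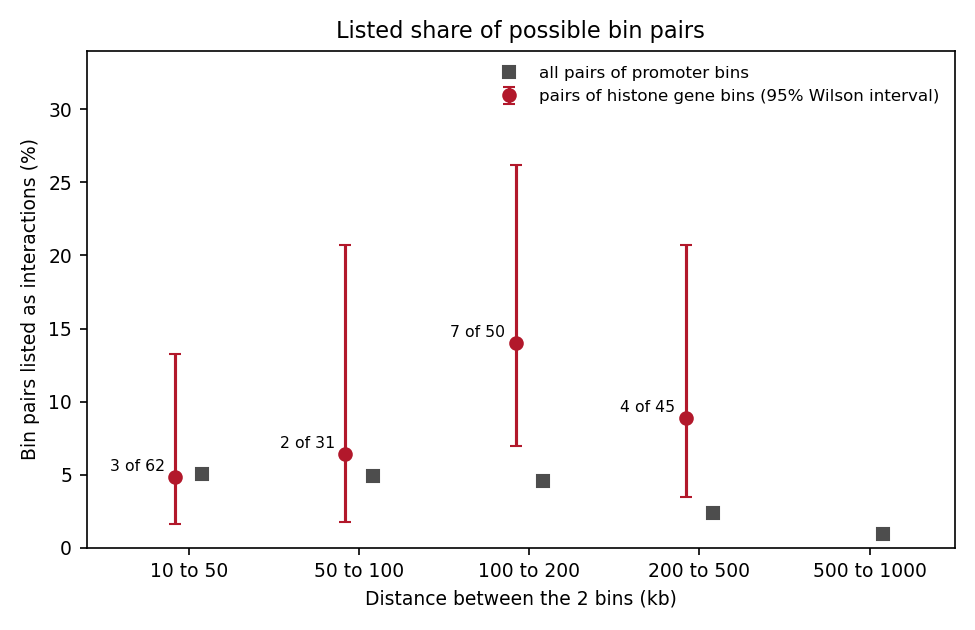
Share of possible bin pairs that were listed as interactions (vertical axis, percent) by distance between the bins (horizontal axis, kb), for pairs of histone gene bins (red circles, bars are 95% Wilson intervals for counting error) and for all pairs of promoter bins (grey squares). The histone share is highest at 14.0% from 100 to 200 kb, where promoter pairs in general stand at 4.58%, and no histone pair was possible beyond 500 kb. The bars treat pairs as independent, although 9 of the 16 listed histone pairs belong to 1 deposited cluster.

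Other gene families are given for comparison. The Hoxa genes, with 171 interactions, had 0 of 60 possible pairs listed (upper Wilson bound 6.02%), and the Hoxb genes, with 128 interactions, 0 of 61 (5.92%). The Mmp protease genes of chromosome 9 had 1 of 44 (2.27%, 0.402 to 11.8). These intervals overlap that of the histone genes, 5.31 to 13.4. The possible pairs were not matched for distance between these families. For histone pairs the share was 4.84% from 10 to 50 kb and 14.0% from 100 to 200 kb. Ribosomal protein genes, a family scattered over the genome, had a median of 17.5 interactions per gene. Of these, 72 of 72 genes were above 0, and 0 of 9 possible pairs were listed.

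By family, each group ran from few interactions to many. H1 had a median of 4.5 per gene, H2A 4.5, H2B 4, H3 3 and H4 5. All 6 H1 genes had interactions: Hist1h1e had 9, Hist1h1t 7, Hist1h1d 5, Hist1h1c 4, Hist1h1b 2 and Hist1h1a 1. Among the core histone genes, 14 of 18 H2A, 13 of 18 H2B, 11 of 12 H3 and 11 of 13 H4 genes had at least 1.

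The highest member of H2A was Hist3h2a at 23, of H2B Hist2h2bb at 17, of H3 Hist2h3b at 17 and of H4 Hist1h4h at 16. A member of H2A took part in 11 of the 16 pairs of histone bins, a member of H4 in 9, and members of H1, H2B and H3 in 8 each. The encoded proteins are alike within a family. The longest annotated coding sequence of each gene was used. The 13 H4 genes have 12 different coding sequences in GENCODE and 1 encoded protein of 103 residues. The 12 H3 genes have 3 proteins, the 18 H2A genes 9, the 18 H2B genes 12 and the 6 H1 genes 6. Lengths ran from 136 to 181 residues in H3 and from 126 to 138 in H2B, so longer gene models can add to these counts. Members with the same H4 protein ranged from 0 to 16 interactions.

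Hist1 distal had 56 interactions, a median of 3 per gene and 9 of 31 genes at 0. The leading bin held Hist1h2af and Hist1h4h with 16 interactions, followed by Hist1h1e with Hist1h2be at 9. The 16 interactions of the first bin summed to 2019 counts. A run of 9 neighbouring partner bins from 23415001 to 23460000, 75 to 115 kb below it, carried 1046 of them (51.8%). Counts in this run were 39 to 215 and ratios 2.28 to 5.76. It includes the promoter of Abt1, an activator of basal transcription, with 116 counts and a ratio of 2.28, the only promoter outside the histone genes that Hist1 distal met.

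Most contacts of Hist1 distal stayed inside it, as they did for the whole stretch between its first and last histone bin. Of all listed interactions with an end in that stretch, with or without a histone bin, 77 lay inside and 25 crossed its edge. In 43 of the 56 histone interactions the partner lay inside, in 13 it lay below, at most 115 kb away, and in none above. The highest bin reached ended at 23765000, where the bin of Hist1h1a, Hist1h3a and Hist1h4a ends. The median ratio was 2.37 and the median distance 92.5 kb, the shortest of the 5 clusters. Hist1h2aa and Hist1h2ba, testis histone genes that lie apart at the upper end, had 0 interactions.

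Hist1 proximal had 51 interactions, a median of 5 per gene and 3 of 23 genes at 0. The leading members were Hist1h2ah and Hist1h2bk, which share a bin with 14 interactions, and Hist1h2ag, Hist1h2bj and Hist1h4i, which share the next bin with 10. Both lie at the upper end of the cluster, and all 24 of their partners had lower coordinates. Here the partner was outside the cluster in 29 of 51 interactions. Of all listed interactions with an end in the stretch of this cluster, with or without a histone bin, 151 lay inside and 239 crossed its edge. For the 51 histone interactions the median distance was 305 kb, the longest 880 kb and the median ratio 3.63. The highest ratio of any histone interaction, 8.76 with 48 counts, joined Hist1h2ah and Hist1h2bk to an intergenic bin 210 kb below, at 21825001 to 21830000.

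A distant region drew many of these contacts. It was picked out after the values were seen: 16 of the 51 interactions (31.4%), from 8 of the 10 bins, ended in a bin centred within 25 kb of the TSS of Trim27 at 21179445. Their distances were 550 to 880 kb, their counts 10 to 34 and their ratios 2.64 to 6.05 (median 3.68). All 16 belong to deposited clusters of 51 or 174 bin pairs, so they are fewer than 16 separate contacts. How often bins of the stretch without a histone gene met this region was not counted. Trim27, a ubiquitin ligase gene, was itself met by 2 histone bins. With Hist1h1b and Hist1h3i it gave 26 counts and a ratio of 3.98 over 600 kb. With Hist1h2ah and Hist1h2bk it gave 22 counts and a ratio of 6.05 over 860 kb.

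Hist2 had 60 interactions, no gene at 0 and a median of 8 per gene, although its genes span 49.9 kb. Hist2h2bb and Hist2h3b share a bin with 17 interactions, Hist2h2aa2 had 16 and Hist2h4 11. Because the cluster is short, 57 of the 60 interactions left it, 35 to lower and 22 to higher coordinates. The median distance was 250 kb and the median ratio 3.11. Its highest ratio, 6.60, was at Hist2h3c2, a gene with 3 interactions. The Hist2h2ab bin, with 4 interactions, also holds the TSS of Bola1, and the values of the 2 genes cannot be separated.

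Hist3h2a had the most interactions of any member, 23, and Hist3h2ba, in the adjacent bin, had 1. The bin of Hist3h2a also holds the TSS of Trim17, so its values belong to both genes. It gave the highest observed count at a histone gene, 629 against 274 expected, with the promoter of Rnf187 15 kb away, a ratio of 2.30. Hist4h4, alone on chromosome 6, had 3 interactions, of 12, 16 and 18 counts. The last joined it to Atf7ip, a chromatin regulator gene 285 kb away, with a ratio of 2.12.

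**Figure D4:**
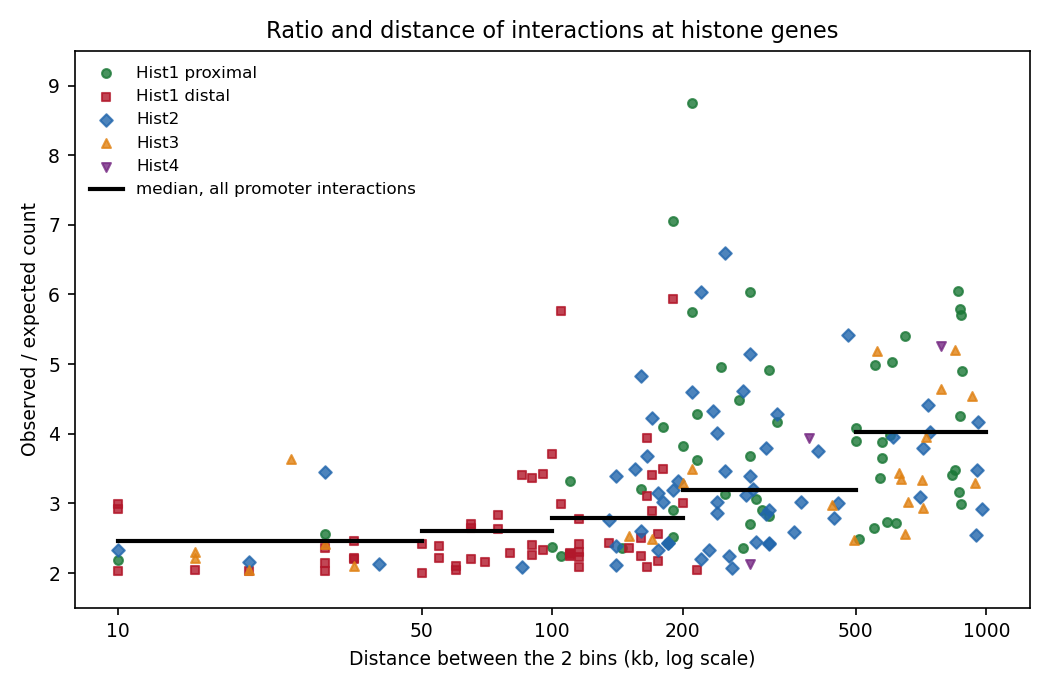
Observed over expected count (vertical axis) and distance between bins (horizontal axis, kb, log scale) of the 194 histone interactions, marked by cluster, with black lines for the median of all promoter interactions in each distance range. Hist1 distal (red squares) lies at 10 to 215 kb with most ratios below 4, and Hist1 proximal (green circles) reaches 880 kb and the highest ratio, 8.76.

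Median ratios of listed interactions rose with distance at histone genes as they did elsewhere. The median ratio was 2.22 from 10 to 50 kb, 2.36 from 50 to 100 kb, 2.58 from 100 to 200 kb, 3.21 from 200 to 500 kb and 3.84 beyond. For all promoter interactions the medians were 2.46, 2.60, 2.79, 3.20 and 4.02. At histone genes the median expected count was 55.9 in the nearest range and 3.70 in the farthest. A pair with a small expected count needs a higher ratio to meet the false discovery rate limit of the list. The rise with distance therefore cannot be told apart from that limit. The lower median ratio of Hist1 distal thus stands beside its shorter distances, and the higher median ratio of Hist1 proximal beside its longer distances.

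The partners of histone genes held a larger share of promoters than those of promoters in general. Of the 210 partner ends, 55 were promoter bins (26.2%, 20.7 to 32.5), against 13.7% of 159206 ends over all promoters. Other histone bins made up 32 of these (15.2%) and other promoters 23 (10.95%). With the histone bins set aside, other promoters were 12.9% of the remaining 178 ends (8.77 to 18.6), close to the general share. The remainder were 97 ends at intergenic bins (46.2%), 40 at bins with an exon (19.0%) and 18 at bins with an intron (8.57%). The shares of these classes over all promoter ends were not computed. Clusters differed in kind. In Hist1 distal 26 of 69 ends were histone bins, whereas in Hist1 proximal 39 of 53 were intergenic.

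The promoters of 18 other genes were met. Of these, 5 were met by 2 histone bins each: Trim27 and the olfactory receptor gene Olfr1366 by Hist1 proximal, and Cers2 (a ceramide synthase), Mindy1 (a deubiquitinase) and Txnip (a thioredoxin-interacting protein) by Hist2. Txnip met Hist2h4 with 49 counts and a ratio of 2.44 over 295 kb, and Hist2h2aa2 with 24 counts and a ratio of 2.91 over 315 kb. Cers2 and Mindy1 were met from 945 to 975 kb, with 8 to 12 counts each.

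The other 13 met 1 histone bin each. Of these, 7 met Hist3h2a (Rnf187, Btnl10, Iba57, Zfp672, Mprip, Gemin5 and Snap47), Vps45 and Gm16253 met Hist2 genes, Nkapl and Zkscan8 met Hist1 proximal, and Abt1 and Atf7ip were named above. The counts of the 18 were lowest at Mindy1, with 8, and highest at Rnf187, with 629.

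Bins without a protein-coding TSS numbered 108 among the partners. Of these, 81 met 1 histone bin, 17 met 2 and 10 met 3 or more. The bin at 23585001 to 23590000 met 7 histone bins of Hist1 distal, with 814 counts in all and ratios of 2.09 to 2.99. It overlaps an exon of Hist1h2be and holds a RefSeq start of that gene at 23585970, whereas GENCODE puts the start 35 kb above, in the bin of Hist1h1e. Hist1h1d likewise has a RefSeq start in the bin next to its GENCODE start. With RefSeq starts added, an alternative chosen after the data were seen, 23 interactions joined 2 histone bins and 210 had a histone bin at an end.

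An intergenic bin at 21165001 to 21170000, near Trim27, met 6 histone bins of Hist1 proximal over 550 to 875 kb, with 143 counts and ratios of 2.64 to 5.79. A further intergenic bin at 23630001 to 23635000, just above Hist1h1e, met 4 histone bins of Hist1 distal over 10 to 115 kb, with 305 counts and ratios of 2.01 to 2.71. It was tied at 4 histone bins with 2 other intergenic bins of lower summed count. The bin at 21160001 to 21165000, also near Trim27, had 93 counts over 575 to 880 kb, and on chromosome 3 the bin at 95950001 to 95955000 met 4 bins of Hist2 with 92 counts over 285 to 315 kb.

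A total of 12 genes in 5 bins had no interaction. They were Hist1h2ao, Hist1h2bq and Hist1h4m in Hist1 proximal, and in Hist1 distal Hist1h2bh with Hist1h3f, Hist1h2ad with Hist1h2ae, Hist1h2bf and Hist1h2bg, Hist1h4b, and Hist1h2aa with Hist1h2ba. Near-identical copies are a limit for reads of 75 bases. In the bin of Hist1h2ao, Hist1h2bq and Hist1h4m, 90.5% of 75-base windows occur at 2 or more places in the genome, and 75-base reads from such windows cannot be placed with certainty. In the other 4 bins the share was 21.6% (Hist1h2ad and its neighbours), 12.8% (Hist1h2bh and Hist1h3f), 3.12% (Hist1h4b) and 2.10% (Hist1h2aa and Hist1h2ba).

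Repeated sequence was commoner at histone genes than at other genes. The median share of repeated windows was 6.96% over the 37 histone bins, against 0.56% over 891 other promoter bins of chromosome 13. Below 10%, 24 bins had a median of 4 interactions with 2 at 0. From 10 to 30%, 10 bins had a median of 4.5 with 2 at 0. At 30% and over, 3 bins had a median of 2 with 1 at 0. Hist1h2ap, Hist1h2br and Hist1h4n had 77.1% repeated windows and 5 interactions, of which 1 is the pair of 10 counts above. The part of repeated sequence in these counts was not tested.

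**Figure D5:**
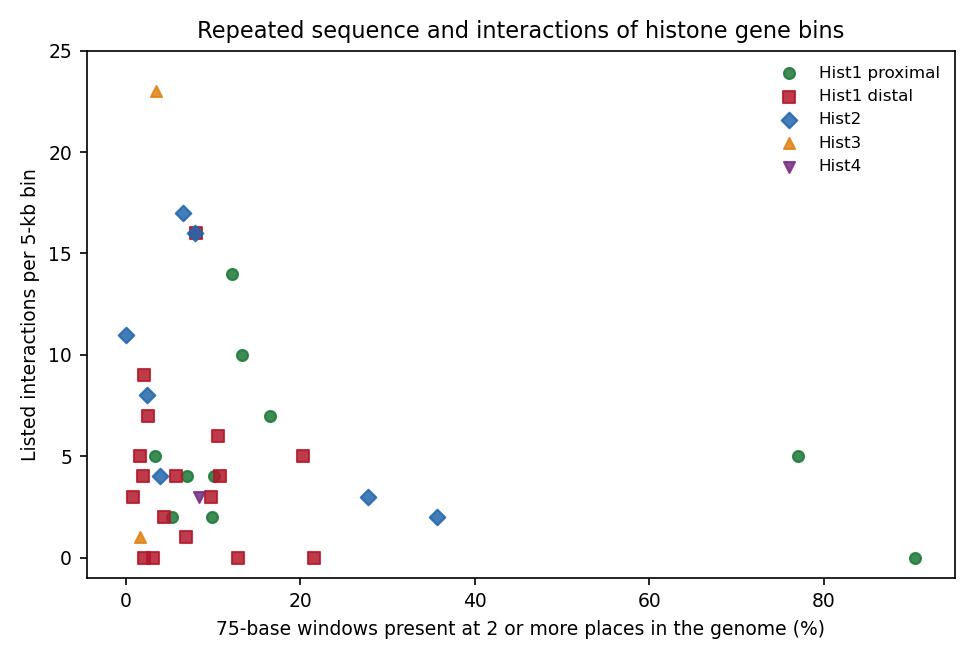
Listed interactions of each histone gene bin (vertical axis) against the percent of its 75-base windows that occur at 2 or more places in the genome (horizontal axis), marked by cluster. Most bins lie below 30%, with 0 to 23 interactions, and of the 2 bins above 70% 1 has 5 interactions and the other has 0.

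In base composition the histone bins were close to other promoter bins of chromosome 13, with a median GC content of 44.0% against 44.5% and 10 against 12 GATC sites, where the enzyme MboI cuts. CpG sites were more frequent, at a median of 122 per bin against 74.

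The macrophage label was checked on the same list. All 10 macrophage marker genes had interactions, with a median of 13.5 per gene (1 to 204), against 63.2% and a median of 2 over all genes. The 3 T cell genes had 0. Interactions were listed for 2 of 3 B cell, 2 of 3 neutrophil and 3 of 3 dendritic cell genes, with highest values of 2, 3 and 5. The groups overlap, since the macrophage genes Itgam, with 1, and Cd68, with 4, lay below the dendritic cell gene Xcr1, with 5. Of the testis histone genes, Hist1h2aa and Hist1h2ba had 0 and Hist1h1t had 7, in a bin it shares with Hist1h4c.

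The genes that transcribe and process histone mRNA lie elsewhere in the genome, and 18 of 20 had interactions, with a median of 15, against 63.2% and a median of 2 over all genes. Npat, the coactivator of histone genes, had 19, and Hinfp, which binds H4 promoters, 25. Casp8ap2, a component of the histone locus body, had 29. Zfp473, which acts in 3′ end cleavage of histone mRNA, had 33 and Slbp, the stem-loop binding protein, 4. Lsm11, a subunit of the U7 particle, and Ncbp1, a cap-binding protein, had 0. None of these genes lies within reach of a histone cluster in the list, which holds no pairs between chromosomes.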

How the data were processed

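H3K4me3 HiChIP was measured in 4 samples of C57BL/6J BMDMs (basal and IL-4, 2 biological replicates each, grouped by their titles). Per the labels, chromatin was cut with 375 U of MboI, and paired ends of 75 bp were sequenced. Bowtie2, bedtools and mm10 are named, without versions, in the submitters' processing notes. According to the methods, interactions were called by the authors with MAPS, which models the count of a bin pair from distance, restriction sites, GC content, mappability and enrichment, at 5000 bp on the merged reads with H3K4me3 peaks as anchors. The list deposited by the authors gives an observed count of read pairs for every bin pair, an expected count (a model signal of the authors), a false discovery rate, which is an adjusted p-value of the authors, a cluster label and size, and a −log10 p-value that the authors summed by cluster, which was not used. The list pools conditions and replicates. Depth per sample is therefore unknown, no test could be run, and no sample could be left out. The summed counts of the list are not a sequencing depth.

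The members and lists were chosen with earlier results of these data known. A promoter bin held a TSS of a protein-coding transcript (GENCODE M21 basic, mm10, positions from 1). Bins without one were classed as exonic, intronic or intergenic from protein-coding gene models. Distance was measured from bin start to bin start, and the ratio is observed over expected count. Shares have 95% Wilson intervals and counts exact 95% Poisson intervals, both for counting error only. Possible pairs were all pairs of histone bins on 1 chromosome 10 kb to 1 Mb apart. Repeated windows were counted by exact match of 75-base words on both strands of 21 nuclear chromosomes of GRCm38. Promoter windows came from RefSeq (GRCm38.p6).

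The genes named were the 3 members with the most interactions in each cluster, all members of clusters of 5 or fewer, the histone pairs ranked 1 to 5 by count or by ratio, the longest pair, the 10 other genes met most, of which 13 tied at 1 interaction and are all named, and the 3 distal bins that met most histone bins, with 2 more that tied. Remaining members are given by family or as members at 0, and motif, family and list values were computed for all members. Alternatives were a false discovery rate under 1e-06, at least 10 counts, a ratio of at least 4, 1 interaction per deposited cluster, no clusters of 1 pair, a TSS within 2500 bp, the outermost TSS, and clusters split at 100 kb. RefSeq starts and the removal of bins shared with other genes were added after the data were seen. The counting of pairs was tested on simulated lists. Python 3.11.15, numpy 2.4.6, pandas 2.3.3, scipy 1.17.1, pysam 0.24.0 and matplotlib 3.10.9 were used.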

Additional observations from a re-analysis of the deposited data

How the results depend on the processing

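The counts depended on how strictly interactions were chosen, and the 194 interactions, 16 histone pairs, 55 genes with interactions, median of 4 per gene and listed share of 8.51% moved as follows. At a false discovery rate under 1e-06 there were 82 interactions, 9 histone pairs, a median of 1 and a share of 4.79%. At a ratio of at least 4 there were 40 interactions, 3 pairs (median ratio 5.75), 27 genes, a median of 0 and a share of 1.596%. With 1 interaction per deposited cluster there were 32 interactions, 3 pairs, 27 genes, a median of 0 and a share of 1.596%. With a TSS within 2500 bp of the bin there were 346 interactions, 48 pairs and a median of 11, beside a share of 7.97%. These 4 settings keep fewer interactions or widen the bins by construction. At least 10 counts (185 interactions), no clusters of 1 pair (186), the outermost TSS (194), and the alternatives added after the data were seen, RefSeq starts (210 interactions, 23 pairs) and bins shared with other genes left out (167 interactions, 16 pairs), stayed within 1.5 times. With clusters split at 100 kb, 14 of the 16 pairs lay within a cluster, since both pairs of Hist1 proximal cross a gap. No paired analysis was possible because the list pools all 4 samples and has no values per sample, and leaving out a replicate was not possible for the same reason. Small counts limit the ratios of long pairs most.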

Other observations

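Replacement histone genes, which lie outside the clusters and are expressed outside S phase as well, differed widely in number of interactions. Of 11 such genes, 8 had interactions, with a median of 5 per gene against 4 for the clustered members and 63.2% of all genes with at least 1. H2afv, an H2A.Z gene, had 24, H2afj 13, and the H3.3 genes H3f3a and H3f3b 11 and 9. H2afx, which marks DNA breaks when phosphorylated, H2afy2, a macroH2A gene, and Cenpa, the centromeric H3, had 0. H2afj lies next to Hist4h4 on chromosome 6, with its gene from 136808244 and the TSS of Hist4h4 at 136804415, and the neighbouring genes had 13 and 3 interactions. The highest count of H2afj was 414, and that of Hist4h4 was 18.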
